A study of Bos taurus with 16 samples.

Results

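The cytosolic ribosomal protein genes encode the protein part of the ribosome that translates nuclear-encoded mRNA. Their members were chosen by name: rows whose NCBI gene ID maps to a bovine symbol of the RPL or RPS series (with an optional A, X or L ending), to RPLP0, RPLP1 or RPLP2, or to RPSA, without entries that carry only a locus name. This rule took 79 of the 34109 genes in the files, of which 30762 (90.2%) had a symbol. The members comprise 32 genes of the small subunit, 44 of the large subunit and 3 of the stalk. The rule itself uses names and no measured value.

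RNA was sequenced from round and sirloin muscle of 8 neonatal male Hanwoo calves (Bos taurus), giving 16 libraries. In each muscle, 4 control calves came from cows fed 100% of their requirement and 4 treated calves came from cows fed 150% from mid to late pregnancy, so the treatment reached the calf only through its dam. All calves were parted from the dam at birth without colostrum, and muscle was taken directly afterwards. The same calves gave both muscles, and each library is 1 animal. The counts assigned to genes ranged from 44473011 to 72446933 per library. Replicate numbers name calves within a diet and do not pair calves across diets.

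Each ribosome holds 1 copy of nearly every ribosomal protein, and cells keep the production of these proteins closely balanced. In mammals their mRNAs share a run of pyrimidines at the 5′ end, the TOP motif, through which mTORC1 and LARP1 control their translation as a group. In skeletal muscle, ribosome content sets much of the capacity for protein synthesis and growth, and striated muscle carries a paralog of RPL3, named RPL3L, that most other tissues lack.

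The tissue label was checked against marker genes. The summed level of 8 skeletal muscle markers was between 54878 and 106668 TPM (the deposited level, scaled for gene length and library total), with none at 0. The sirloin library of treated replicate 4 stood apart with 3777 TPM for 5 adipocyte markers (ADIPOQ, PLIN1, LEP, FABP4 and CIDEC), against 0.730 to 15.0 TPM in the other 15 libraries. Round control replicate 2 had the highest sum of 4 fibroblast markers (PDGFRA, COL1A1, DCN and LUM), 1089 TPM against 101 to 364 TPM elsewhere. The sum of 7 red blood cell markers was 13.4 to 36.6 TPM in treated and 3.88 to 18.8 TPM in control round muscle, and 13.0 to 36.1 against 3.84 to 14.5 TPM in sirloin, with SLC4A1 at 0 everywhere. The sum of 6 leukocyte markers (PTPRC, CD3E, CD14, CD68, CSF1R and S100A8) was 4.46, 6.02, 5.43 and 6.07 TPM in control sirloin libraries and 16.6, 16.6, 4.85 and 17.4 TPM in treated ones, so treated replicate 3 alone lay within the control range. In round muscle it was 4.55 to 9.61 TPM in control and 6.80 to 12.6 TPM in treated libraries. Bulk libraries cannot tell fewer cells of a type from less RNA per cell, and the part of these markers in the results was not tested.

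Most members were among the abundant mRNAs of both muscles. In all libraries 78 of 79 members had at least 10 counts, and their lowest count was 1090. The mean level over 16 libraries exceeded 1000 TPM for 58 members, and 33 of the 100 genes of highest mean TPM were members. Most levels lay in a narrow range, with 69 of 79 members (87.3%) between 500 and 2500 TPM and a median of 1335 TPM without RPL10L. Processed pseudogenes nearly identical to many ribosomal protein mRNAs exist in mammalian genomes, so each level depends on how reads with several matches were counted. The single pseudogene listed under such a symbol, RPS27P, held 10 to 34 counts. Entries that carry only a locus name were left out, so this count does not show how many reads other copies took.

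Of the stalk proteins, which bind the elongation factors, RPLP1 was the most abundant member. Its TPM was 12636, 5530, 7859 and 8891 in control and 12602, 8607, 8713 and 11859 in treated round muscle, and 11934, 7345, 9361 and 9779 in control and 14010, 12472, 11448 and 11381 in treated sirloin muscle. Control replicate 2 was lowest in both muscles and the diet groups overlapped. The TPM of that calf summed to 1000000 in both muscles, unlike in the other libraries, and whether it was processed differently was not tested. The mean of RPLP1, 10277 ± 2349 TPM (SD, n = 16 libraries of 8 calves), was 7.70 times the median member, and RPLP1 took 6.68% of all member counts. RPLP1 exceeded its partner RPLP2, at 849 ± 310 TPM, by a ratio of 6.63 to 17.6, and exceeded RPLP0, the scaffold that carries both, at 2410 ± 577 TPM, by a ratio of 2.66 to 6.28. In the assembled stalk the RPLP1 and RPLP2 proteins occur as pairs.

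After RPLP1 came RPL10, needed for the joining of the subunits, at 3162 ± 654 TPM. RPSA, a small subunit protein also known as the laminin receptor, had 1150 ± 241 TPM.

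The lowest members were RPL10L, RPS27L and RPL3L, each a paralog of another member. RPL10L, the testis paralog of RPL10, had 1 count in each of sirloin control replicates 2, 3 and 4 and 0 in the other 13 libraries, under the floor of 3 counts, so no fold is given for it. RPS27L had 170 ± 37.9 TPM, and its ratio to RPS27 in TPM was between 0.124 and 0.296 with a median of 0.220. RPL3L had 315 ± 67.0 TPM and RPL3, the next member upwards, 381 ± 164 TPM, which differ by less than the spread of RPL3. RPL39L was not analysed here.

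**Figure D1:**
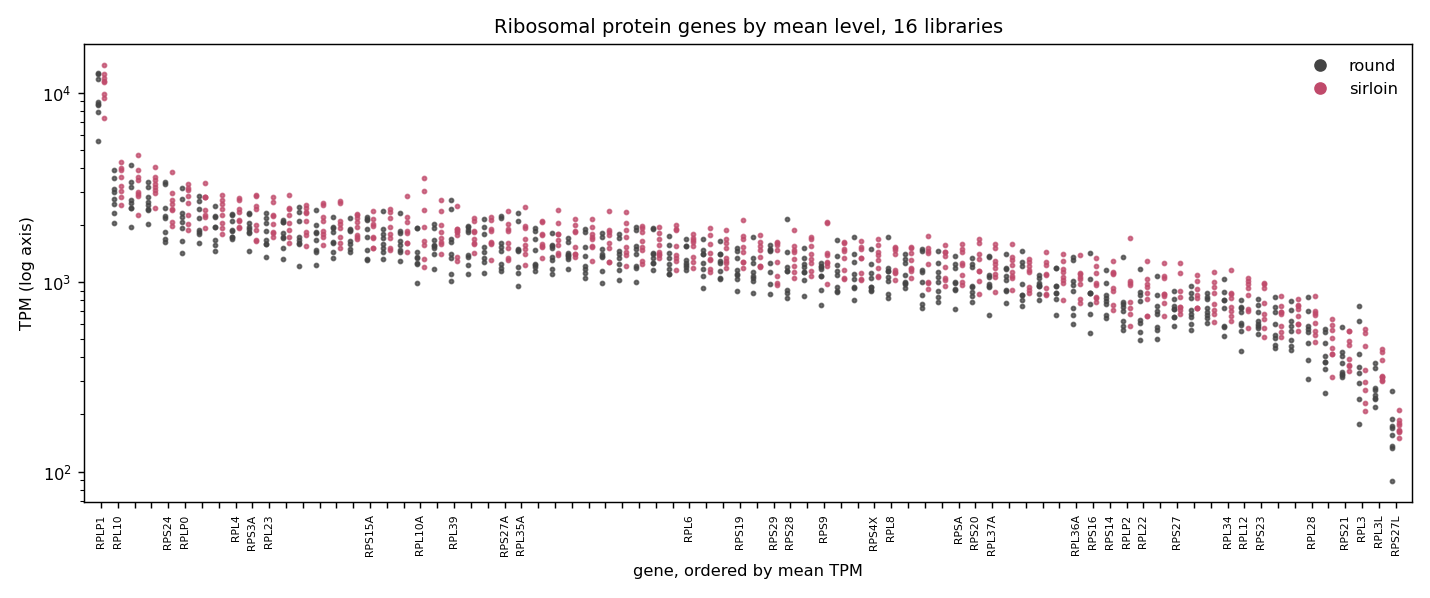
TPM of the 78 members with counts in every library, on a log axis, ordered by mean, with 1 point per library (round dark grey, sirloin red) and labels for genes described in the text. RPLP1 lies alone at the top, and RPL3, RPL3L and RPS27L form the low end.

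The question of the design is whether calves of overfed cows differ from control calves. The members together took 5.15%, 3.36%, 3.88% and 4.20% of the counts in the round libraries of control replicates 1 to 4. In treated round muscle they took 5.28%, 3.57%, 4.13% and 5.33%. The groups overlapped, with means of 4.15% ± 0.753 (SD, n = 4) and 4.58% ± 0.869 (n = 4) and a ratio of 1.10.

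In sirloin muscle, control calves had shares of 4.41%, 4.02%, 4.12% and 4.31%. Treated calves had 5.42%, 5.93%, 5.20% and 6.20%. Every treated library was above every control library, and the means were 4.21% ± 0.175 (n = 4) and 5.69% ± 0.456 (n = 4), a ratio of 1.35. Without treated replicate 4, the library with adipocyte markers, the groups differed by 1.30 percentage points, against 1.47 with it. The exact 95% binomial interval of any single share was at most 0.0137 percentage points wide. It covers counting error only. Since this is a sum over the chosen members, no p-value is given. The member share of library totals was higher in sirloin than in round muscle in 7 of 8 calves, control replicate 1 being the exception (5.15% in round and 4.41% in sirloin). Sirloin minus round, in percentage points by replicate, was -0.747, 0.655, 0.247 and 0.109 for controls. For treated calves it was 0.141, 2.35, 1.07 and 0.867.

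The size of the sirloin difference depended on the scaling. TMM factors, which correct library totals for composition, were 0.862 to 1.03 in control and 1.02 to 1.12 in treated sirloin libraries. With totals scaled by these factors, the sirloin groups differed by 0.797 percentage points instead of 1.47, a setting added after the data were seen. On the same scale the share was higher in sirloin than in round muscle in 5 of 8 calves, as control replicate 4 (4.54% in round and 4.41% in sirloin) and treated replicate 1 (5.28% and 4.97%) also turned. All further values in CPM (counts scaled to a common library total) use TMM totals over the 16 libraries. On that scale the mean of log2 CPM over members, minus the mean of the muscle, was 0.05, -0.29, -0.13 and -0.13 for control and 0.03, 0.16, 0.08 and 0.23 for treated sirloin libraries, with overlap through control replicate 1. In round muscle it was 0.37, -0.45, -0.05 and 0.05 for control and 0.27, -0.35, -0.12 and 0.28 for treated libraries, so both diets spanned nearly the whole range.

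**Figure D2:**
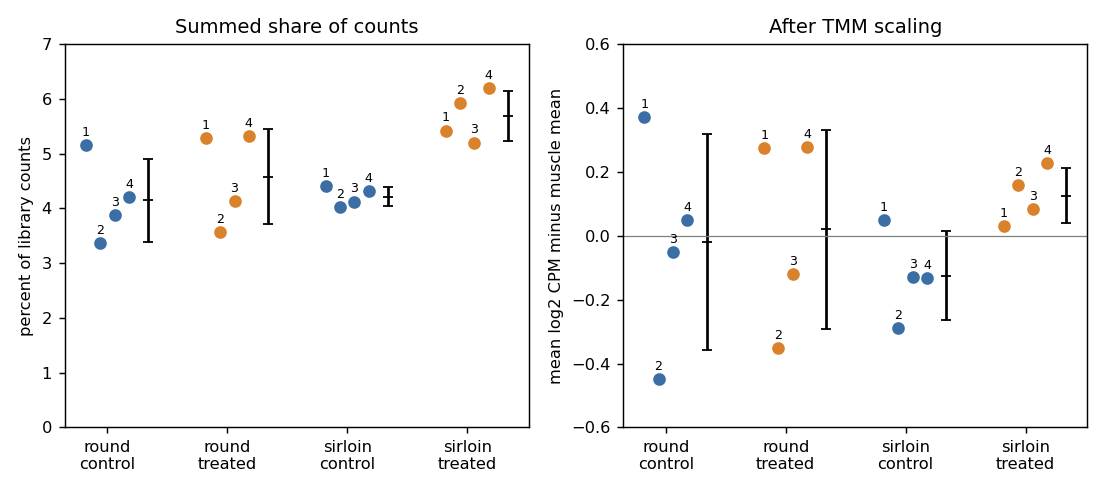
Left, percent of library counts taken by the members; right, mean log2 CPM of the members after TMM scaling minus the mean of that muscle. Points are calves (control blue, treated orange) with their replicate number, and black bars give the group mean and SD (n = 4). Treated sirloin libraries (5.20% to 6.20%) lie above control sirloin libraries (4.02% to 4.41%) on the left, while sirloin control 1 overlaps the treated group on the right.

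The members varied together among calves. For each gene, the Pearson correlation with the mean of the other members was computed over the 8 libraries of a muscle after the diet means were removed. These correlations are descriptions over 8 points that share library totals and TMM factors. In round muscle the median over 78 members was 0.891, against -0.0784 over all 21677 genes tested and 0.166 over the other genes of at least 100 CPM. Values above 0.5 were found for 76 of 78 members, for 11.5% of all genes and for 23.4% of those other genes of at least 100 CPM. In sirloin muscle the median was 0.687, against -0.0274 over all genes and 0.101 over the other genes of at least 100 CPM. There, 57 of 78 members, 13.5% of all genes and 19.9% of the other genes of at least 100 CPM were above 0.5. The mean correlation between pairs of members was 0.724 in round and 0.411 in sirloin muscle, against 0.00561 and 0.00326 over pairs of all genes. Such co-variation was not particular to the members. Among themselves, pairs of ribosome biogenesis genes had 0.655 in round and 0.630 in sirloin muscle, the latter above the members. Pairs of mitochondrial ribosomal protein genes had 0.462 and 0.251. The median SD within diet groups was 0.38 in round and 0.17 in sirloin muscle on the log2 scale (all genes 0.53 and 0.51). For the other genes of at least 100 CPM it was 0.40 and 0.36, so in round muscle the members were near that level.

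The closest followers in round muscle were RPL4, which lines part of the exit tunnel (0.984), RPS20 (0.981) and RPL6 (0.976). RPL4 had 1984, 1292, 1674 and 1630 CPM in control and 1906, 1294, 1570 and 1956 CPM in treated round muscle. Replicate 2 was the lowest calf of both diets. In sirloin muscle the highest were RPS20 (0.962), RPS4X (0.952) and RPL37A (0.951). RPS20 had 360, 240, 302 and 321 CPM in control and 348, 400, 369 and 447 CPM in treated sirloin muscle. Control replicate 1 overlapped the treated calves there.

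RPL3, close to the peptidyl transferase centre, followed the other members least in both muscles (0.147 in round and -0.534 in sirloin). Next in round muscle were its paralog RPL3L (0.444) and RPL28 (0.604), and in sirloin muscle RPL10A, part of the L1 stalk where tRNA leaves (-0.159), and RPS27L (-0.0761). Without any 1 calf, the median correlation stayed between 0.852 and 0.928 in round and between 0.664 and 0.784 in sirloin muscle.

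Other translation genes followed the members to different degrees. The 7 ribosomal components outside the name rule (FAU, RACK1 and RPL22L1 among them) had medians of 0.792 in round and 0.440 in sirloin muscle, and 20 other TOP mRNAs had 0.627 and 0.415. EEF1B2, a subunit of the exchange factor of elongation factor 1, was at 0.95 and 0.90, whereas NACA, which binds nascent chains, was at -0.05 and 0.20. The lowest of these 20 were VIM in round muscle (-0.56, and 0.23 in sirloin) and EIF4B in sirloin muscle (-0.35, and 0.75 in round). The medians were 0.367 and 0.428 for 30 ribosome biogenesis genes, 0.240 and 0.194 for 14 RNA polymerase I genes, and 0.101 and 0.187 for 17 regulators. The 78 mitochondrial ribosomal protein genes had 0.601 in round and -0.124 in sirloin muscle, and 37 proteasome genes had 0.438 and -0.0866. Whether the muscles differ in these correlations was not tested.

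Beneath the common variation, members differed from each other in a pattern that both muscles of a calf often shared. After group and library means were removed, the deviations of 78 members in round and sirloin muscle of the same calf correlated at 0.179 to 0.882. The best match of a round library was the sirloin library of its own calf in 5 of 8 calves, all but control replicate 4 and treated replicates 1 and 4. Treated replicate 1 had the lowest own value, 0.179. These are correlations across genes, which are not independent replicates.

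The leading axis of these deviations held 50.6% of their variance. At 1 end were RPL28, RPL3, RPLP0 and RPS16, and at the other RPL39, RPL22, RPL36A, RPS24 and RPL35A. RPL28 had 269, 147, 140 and 116 CPM in control and 280, 171, 196 and 188 CPM in treated round muscle. RPL39, which lines the exit tunnel, had 403, 203, 397 and 598 CPM in control and 310, 215, 290 and 603 CPM in treated round muscle. RPL39 was thus highest in replicate 4 of both diets, where RPL28 was lowest among controls and second lowest among treated calves. The ratio of RPL39 to RPL28 in TPM ran from 1.68 to 7.86 over the 16 libraries with a median of 2.46.

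**Figure D3:**
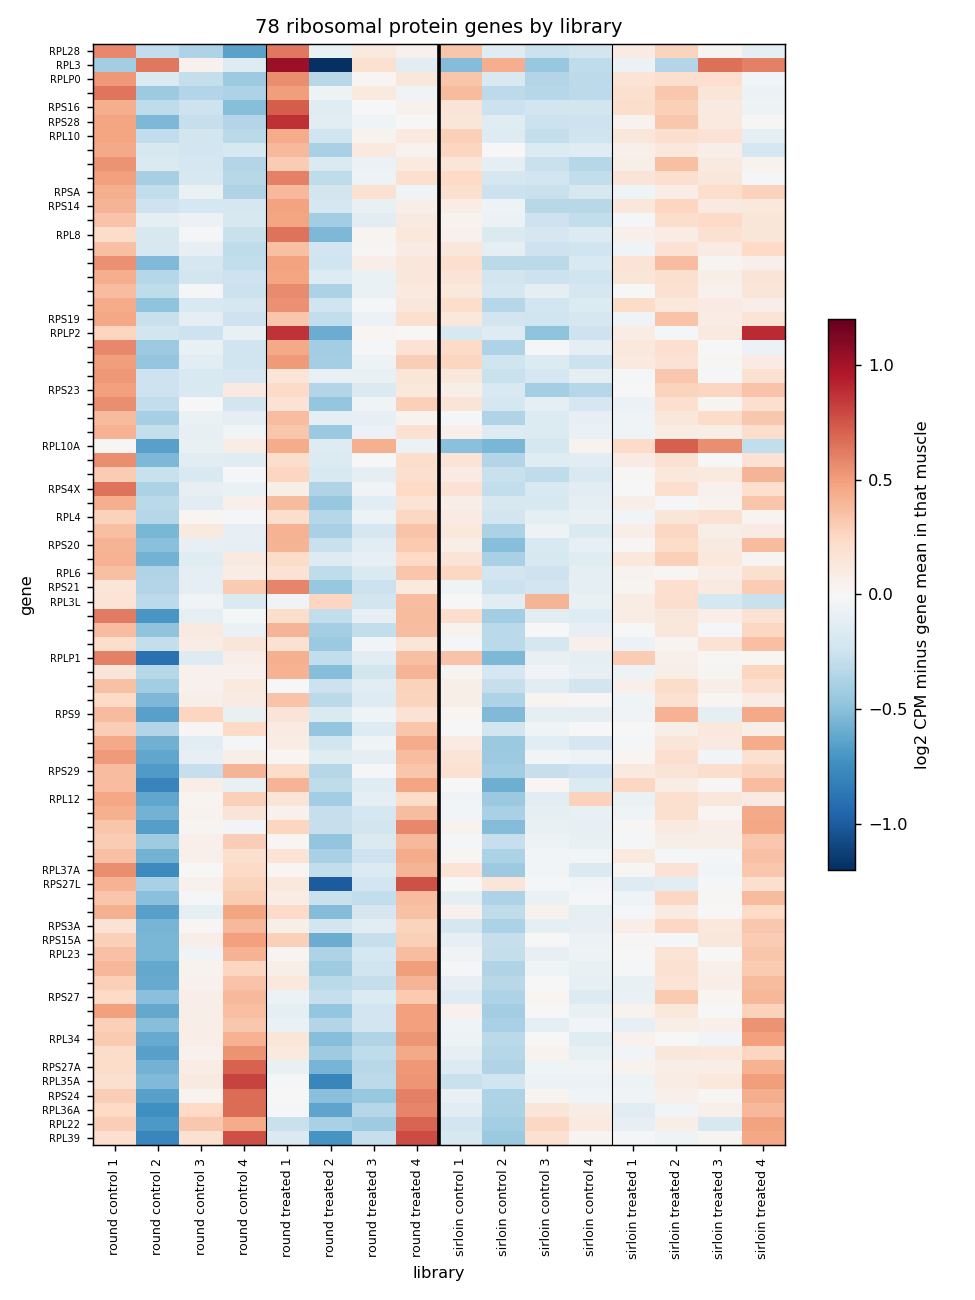
Log2 CPM of 78 members (rows, ordered by the leading axis of their differences, with labels for genes described in the text) in 16 libraries (columns), minus each gene's mean in that muscle; red is higher and blue lower. Whole columns shift together, round control 2 being mostly blue, and the top and bottom rows diverge in round control 4 and round treated 4.

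No member passed the test of treated against control round muscle. edgeR's quasi-likelihood test called 0 of 78 members at an adjusted p below 0.05, where 0.0185% of all 21677 genes were called, and 0 members had an unadjusted p below 0.05, against 4.41% of all genes. DESeq2 and limma-voom also gave 0 members at either level. Of all 21677 genes, DESeq2 called 45 and put 3.98% at an unadjusted p below 0.05. For limma-voom these were 1 and 3.94%. The median log2 fold change (treated over control) was 0.07, against 0.02 over all genes, and 49 of 78 members were above 0 (51.9% of all genes). In 0 members did the groups not overlap with treated higher (0.687% of all genes).

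The 5 members of smallest p were RPL10A, RPS28, RPS16, RPL28 and RPL3L. RPL10A had 603, 381, 564 and 637 CPM in control and 814, 539, 803 and 572 CPM in treated round muscle. Its groups overlapped, and its log2 fold change was 0.34 (SE 0.26, edgeR adjusted p = 0.869, 95% interval -0.23 to 0.92). RPS28 had 326, 161, 194 and 184 CPM in control and 431, 213, 226 and 234 CPM in treated calves. The log2 fold change was 0.38 (SE 0.32). Treated replicate 1 was the highest library for RPS28, and without it the change was 0.06. RPS16 and RPL28 were at 0.34 each (SE 0.29 and 0.30) and RPL3L at 0.21 (SE 0.23). The stalk genes were at 0.20 (RPLP0), 0.15 (RPLP1) and 0.26 (RPLP2), with SEs from 0.30 to 0.34, and RPSA at 0.16 (SE 0.27). RPL10 was at 0.19 (SE 0.28), RPL39 at -0.15 (SE 0.38), RPS27 at -0.10 (SE 0.25) and RPS27L at -0.05 (SE 0.34). Without control replicate 2 the median over members was -0.09 and 25 of 78 were above 0, and without treated replicate 1 or 4 it was -0.04 in each.

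Nearly all members had a log2 fold change above 0 in treated sirloin muscle, but none passed the test. edgeR called 0 of 79 members (0.00918% of all 21776 genes). DESeq2 and limma-voom also called 0 members, where they called 13 and 0 of all genes. At an unadjusted p below 0.05 there were 4 members, all higher in treated calves, against 3.91% of all genes in both directions and 2.3% in that direction. The log2 fold change was above 0 in 76 of 79 members (52.9% of all genes), the exceptions being RPL3L, RPS27L and RPL10L, whose fitted value rests on 3 counts in all. The median over 78 members was 0.24, against 0.03 over all genes, and the median SE was 0.18.

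Those of smallest p were RPLP2, RPL10A, RPS23, RPS3A and RPS21. RPLP2 had 206, 211, 168 and 197 CPM in control and 250, 231, 256 and 438 CPM in treated sirloin muscle. The groups did not overlap, and treated replicate 4 was far above the rest. The log2 fold change of RPLP2 was 0.58 (SE 0.23, edgeR unadjusted p = 0.0290, adjusted p = 0.876), and 0.34 without treated replicate 4, the library with adipocyte markers.

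RPL10A had 557, 536, 681 and 807 CPM in control and 924, 1291, 1160 and 642 CPM in treated sirloin muscle. The groups overlapped through treated replicate 4, the lowest treated calf, and the log2 fold change was 0.64 (SE 0.25, edgeR adjusted p = 0.876). RPS23, which lies at the decoding centre, had 276, 231, 198 and 207 CPM in control and 263, 317, 316 and 333 CPM in treated calves. Its log2 fold change was 0.43 (SE 0.19), with overlap between control replicate 1 and treated replicate 1. RPS3A had 950, 842, 1019 and 1020 CPM in control and 1160, 1299, 1197 and 1373 CPM in treated calves, without overlap and with a log2 fold change of 0.39 (SE 0.17). RPS21 had 86.4, 74.9, 76.3 and 83.4 CPM against 92.0, 103, 96.5 and 111 CPM, also without overlap, at 0.32 (SE 0.17).

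In all, 9 of 79 members did not overlap with treated higher, against 0.859% of all genes, and 0 with treated lower (0.822%). They included RPLP2, RPS3A, RPS21, RPL35A, RPS27A, RPS14, RPL23 and RPL8, and the 9 had log2 fold changes of 0.23 to 0.58. Because members move together, these 9 are not separate observations. The number depended on control replicate 1 and on scaling: without that calf it was 51 (1.87% of all genes), without treated replicate 1 it was 26 (2.27%) and without control replicate 3 it was 15 (1.78%). With library totals and no TMM factors it was 64 (2.79%), and in TPM it was 59 (2.74%). Without TMM factors the median over all genes also moved, from 0.03 to 0.21, while the members' median moved from 0.24 to 0.43.

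Among the other members, RPSA was at 0.25 (SE 0.19), RPLP0 at 0.24 (SE 0.21), RPL39 at 0.20 (SE 0.21), RPL10 at 0.18 (SE 0.20), RPLP1 at 0.17 (SE 0.22) and RPS27 at 0.33 (SE 0.19). RPS27L was at -0.05 (SE 0.17). The lists of other translation genes had 0 genes called by edgeR in round or sirloin muscle (0.0185% and 0.00918% of all genes). In sirloin muscle they had 0 genes with an unadjusted p below 0.05 (3.91% of all genes). In round muscle 4.41% of all genes had an unadjusted p below 0.05, and EIF4E and NAP1L1 were the only list genes there. The regulator EIF4E, which binds the mRNA cap, was at -0.95 (SE 0.38, edgeR unadjusted p = 0.0290, adjusted p = 0.864). NAP1L1 of the other TOP mRNAs was at -0.46 (SE 0.21, edgeR unadjusted p = 0.0459). The medians of the lists in sirloin muscle were 0.21 for the 7 components outside the name rule, 0.09 for the other TOP mRNAs, 0.08 for ribosome biogenesis, 0.15 for RNA polymerase I, -0.08 for regulators, -0.06 for mitochondrial ribosomal proteins and 0.09 for the proteasome.

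**Figure D4:**
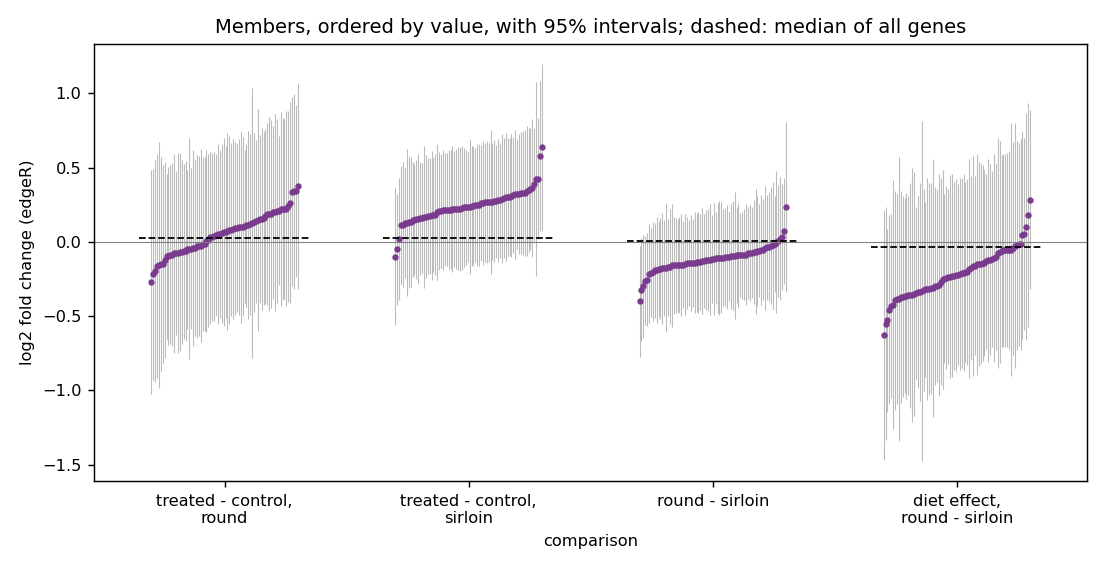
Log2 fold changes of the 78 members (points, ordered by value within each comparison) with 95% intervals from edgeR (grey), and the median of all genes tested (dashed). Nearly all sirloin diet values lie above 0 with a median of 0.24, most intervals reach 0, and the last column gives the round diet effect minus the sirloin diet effect.

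The muscles were compared with all 16 libraries in 4 groups, a fit that does not pair the muscles of a calf. In it, edgeR called 0 of 79 members between the muscles (0.0612% of all 22877 genes). DESeq2 and limma-voom also called 0 members, where they called 84 and 21 of all genes. By edgeR, 1 member had an unadjusted p below 0.05 (6.33% of all genes). The log2 fold change (round over sirloin) was above 0 in 5 of 79 members (50.6% of all genes), namely RPL3, RPS29, RPS15A, RPS27L and RPL34. The median over 78 members was -0.11, against 0.00 over all genes. These values pool the diets. As shares of library totals, the muscles differed mostly among treated calves, with means of 4.58% (round) and 5.69% (sirloin). Control means were 4.15% (round) and 4.21% (sirloin). The muscles were not tested within a single diet. By calf, 9 members were lower in round muscle in 7 of 8 calves and none in all 8, against 6.19% of all genes lower in at least 7 and 1.34% lower in all.

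The lowest was RPL10A, lower in round muscle in 7 of 8 calves, at -0.40 (SE 0.18, edgeR unadjusted p = 0.0380, adjusted p = 0.765). RPS9 was at -0.32 (SE 0.16), RPL12, at the base of the stalk, at -0.30 (SE 0.17), RPL3L at -0.26 (SE 0.14) and RPS19 at -0.25 (SE 0.15). RPS9 had 625, 306, 572 and 451 CPM in control and 535, 425, 463 and 541 CPM in treated round muscle. In sirloin muscle it had 614, 418, 560 and 560 CPM in control and 585, 805, 561 and 828 CPM in treated calves, and the muscles overlapped. The calf as a block, which pairs the muscles, gave 5 of 79 members with an unadjusted p below 0.05, against 11.2% of all genes. In that fit 0 members were called, against 109 of all 22877 genes.

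The diet effect did not detectably differ between the muscles. edgeR's interaction test called 0 of 79 members and 0% of all genes, and 0 members had an unadjusted p below 0.05 (2.78% of all genes). DESeq2 and limma-voom gave 0 members at both levels. Each called 0 of all genes, with 1.27% and 1.69% at an unadjusted p below 0.05. With the calf as a block, 1 member had an unadjusted p below 0.05 (3.78% of all genes in that fit). In that fit 0 members were called, against 1 of all 22877 genes. Without that block, the median interaction (round diet effect minus sirloin diet effect) was -0.22 over 78 members and -0.04 over all genes. Of 79 members, 6 were above 0 (47% of all genes). Those of smallest p were RPS23 at -0.53 (SE 0.29), RPL35A at -0.63 (SE 0.40), RPS27 at -0.46 (SE 0.30), the ubiquitin fusion gene RPS27A at -0.55 (SE 0.37) and RPS3A at -0.43 (SE 0.29). Their edgeR adjusted p was 1.00.

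RPL3 had the largest SD within diet groups of the 78 members in both muscles (0.74 in round and 0.47 in sirloin, log2 CPM). It had 211, 440, 294 and 254 CPM in control and 580, 122, 321 and 260 CPM in treated round muscle, and 177, 343, 184 and 205 CPM in control and 242, 198, 399 and 383 CPM in treated sirloin muscle. The highest calf exceeded the lowest by 4.74 times in round and 2.26 times in sirloin muscle, and the diet groups overlapped in both. RPL3L had 250, 180, 216 and 197 CPM in control and 216, 267, 191 and 288 CPM in treated round muscle. In sirloin muscle it had 267, 243, 354 and 250 CPM in control and 283, 309, 230 and 221 CPM in treated calves. Its range was 1.60 times in each muscle.

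In TPM, RPL3L took between 26.4% and 67.8% of the sum of both genes, round treated replicates 1 and 2 being the extremes. The log2 ratio of RPL3L to RPL3 counts was -0.46 ± 0.63 in control and -0.23 ± 1.11 in treated round muscle (exact permutation test, two-sided, n = 4 and 4, p = 0.771). In sirloin muscle it was 0.33 ± 0.61 and -0.18 ± 0.73 (exact permutation test, n = 4 and 4, p = 0.286, where 0.0286 is the smallest p possible). Over the 8 calves, round minus sirloin was -0.42, with 5 calves lower in round muscle (exact sign-flip permutation test, p = 0.227, smallest possible 0.00781). The adjusted values over these 3 comparisons were 0.771, 0.429 and 0.429. In the edgeR fits, RPL3 was at 0.13 (SE 0.42) for diet in round, 0.42 (SE 0.30) for diet in sirloin and 0.24 (SE 0.27) for round over sirloin, and RPL3L at -0.10 (SE 0.21) for diet in sirloin.

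Calves with more RPL3 tended to have less RPL3L, but the relation did not pass the adjusted test. In sirloin muscle, Pearson's r of log2 CPM over 8 calves was -0.77 (permutation p = 0.0280, adjusted over both muscles 0.0560) and Spearman's rho was -0.79 (permutation p = 0.0279, adjusted 0.0559). Without the 2 calves farthest from the median of RPL3, treated replicates 3 and 4, r was -0.55, and on the scale of log2(TPM + 1) it was -0.41 (permutation p = 0.315). In round muscle r was -0.60 (permutation p = 0.113) and rho -0.62 (permutation p = 0.115, both unchanged by adjustment), and r was -0.69 without treated replicates 1 and 2. With the diet means removed, r was -0.64 in round and -0.77 in sirloin muscle.

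**Figure D5:**
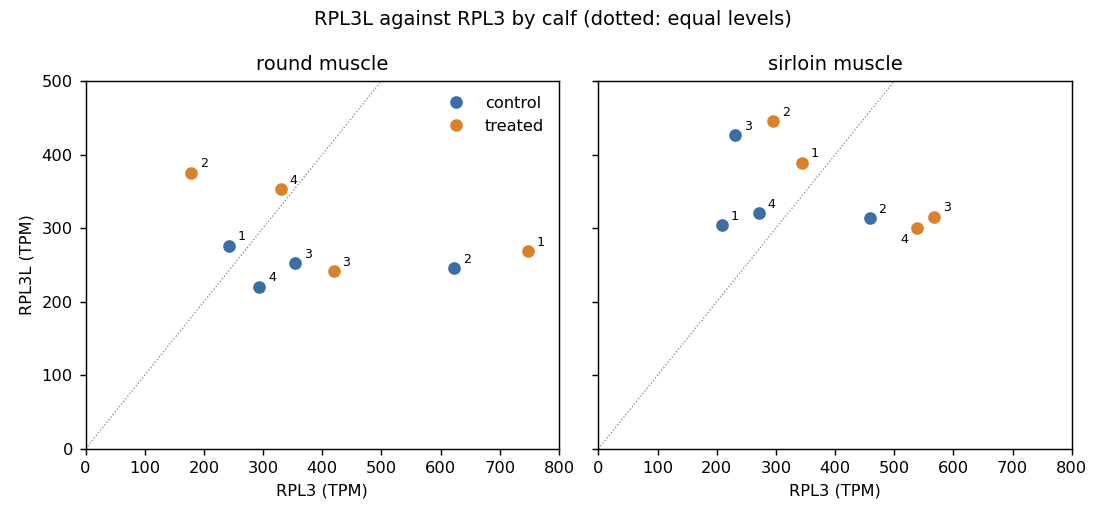
RPL3L against RPL3 in TPM for each calf (control blue, treated orange), labelled by replicate number, in round (left) and sirloin (right) muscle; the dotted line marks equal levels. RPL3 spans 178 to 748 TPM and RPL3L 220 to 446 TPM, and round treated 1 and 2 lie at opposite ends.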

How the data were processed

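RNA from round and sirloin muscle of 8 calves was sequenced as 16 libraries. The authors deposited read counts per gene without normalization, and TPM scaled for gene length. The sources disagree on how these were made: the labels state poly(A) selection and the paper depletion of rRNA and globin transcripts, and the submitters' processing notes list FastQC, Trimmomatic, STAR, featureCounts, DESeq2 and the build ARS-UCD1.2, whereas the paper names HISAT2, Bowtie2, StringTie and DESeq2 after Trimmomatic and SortMeRNA. How reads with several matches were counted is not given in the sources used here, which bears on genes with near-identical pseudogenes. The deposited comparison tables (the authors' fold changes and p-values) were not used. TPM summed to 1000000 in both libraries of control replicate 2 and to 999756 to 999858 in the others, and results are also given without that calf.

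Symbols were matched by NCBI gene ID to a RefSeq table of another assembly, so no coordinates are given. The members and gene lists were chosen with earlier results of these data known. Genes named were the stalk genes and RPSA, paralog pairs, the 5 members of smallest p per comparison, the 3 highest and 3 lowest in TPM and in correlation, and members under 10 counts in all libraries. A few names in counts of 9 or fewer, on the leading axis and among lists were added after values were seen.

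Counts were tested with edgeR 4.0.16 (R 4.3.3, TMM, glmQLFit, glmQLFTest, two-sided) on genes with at least 1 count in any library of the fit, diet in each muscle by itself, and muscle and interaction in 1 fit of 16 libraries in 4 groups. The fit of 16 libraries does not pair the muscles of a calf, unlike the calf block. p-values were Benjamini-Hochberg adjusted over all genes tested with a threshold of 0.05. An SE is the log2 fold change divided by the square root of F. Correlations were computed on log2 CPM (prior count 2), and paralog ratios used a pseudocount of 0.5. Alternatives were DESeq2 1.42.0, limma-voom and limma 3.58.1 on log2(TPM + 1), RLE and upper-quartile factors, TMM without members, no TMM, filterByExpr, all libraries in each diet fit, blocks and leaving out each calf. The edgeR fits with TMM factors were tested on simulated counts, and the correlation and permutation functions on small examples with known answers. The alternatives, summed shares, overlap counts and leading axis were not tested in that way.

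Round and sirloin libraries with the same number in the labels were taken as 1 animal, an inference from the numbering. Deviations from group means correlated at 0.250 to 0.595 between muscles of the same calf and at most 0.281 between calves, so the ranges overlapped. Total counts of 44473011 to 72446933 per library leave the members with 1090 counts or more apart from RPL10L, so counting error is small beside the spread between calves. Promoter motifs were not analysed here. A few members enter every count but are left unnamed.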

Additional observations from a re-analysis of the deposited data

Results flagged for a closer look

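In 13 of 100 groups of 4 libraries tested, the named members (all in CPM) had a library that stood apart from the other 3 by Dixon's criterion. Chance flags about 1 in 20 groups, and members that vary together are flagged together. Sirloin control replicate 1 was the high library for RPL28 (252, others 168 to 181), RPS16 (359, others 269 to 277), RPS19 (486, others 377 to 385) and RPSA (863, others 629 to 664). Sirloin treated replicate 4, the library with adipocyte markers, was high for RPL39 (513, others 361 to 380), RPLP2 (438, others 231 to 256) and RPS27A (740, others 568 to 586), and low for RPLP0 (1582, others 1817 to 1865). Sirloin treated replicate 1 was high for RPLP1 (3950, others 3231 to 3344), and sirloin control replicate 2 was high for RPL3 (343, others 177 to 205). In round muscle, control replicate 1 was high for RPL10 (1728, others 999 to 1071), treated replicate 4 for RPL22 (414, others 190 to 212) and treated replicate 1 for RPS28 (431, others 213 to 234).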

How the results depend on the processing

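No alternative called a member in any of the 4 comparisons at an adjusted p below 0.05. Over all genes, the alternatives called at most 109, between the muscles with the calf block. At an unadjusted p below 0.05, edgeR gave 4 members for diet in sirloin and 1 between the muscles (3.91% and 6.33% of all genes), and limma on log2(TPM + 1) gave 64 and 20 (5.04% and 6.12%). Without TMM factors the counts were 59 and 5 (5.59% and 6.30%). The sirloin members were all higher in treated calves, as were 4.37% of all genes on TPM and 4.88% without TMM factors. Leaving out 1 calf gave 1 to 5 members in sirloin (2.91% to 4.96% of all genes) and 0 to 2 between the muscles (4.41% to 6.56%). The median log2 fold change for diet in sirloin was 0.42 on TPM and 0.43 without TMM factors, and 0.19 to 0.32 without 1 calf. In round muscle, leaving out 1 calf moved it from -0.09 to 0.20, so its sign rested on single calves.

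The share of the members differed by 3.71 percentage points for diet in sirloin and by -1.82 for round minus sirloin when taken from TPM, and by 0.797 for diet in sirloin with TMM-scaled totals. Without 1 calf, these differences of count shares ranged from 1.30 to 1.63 and from -0.778 to -0.335, and for diet in round from 0.169 to 0.765. Members without overlap and higher in treated sirloin numbered 64 without TMM factors (2.79% of all genes) and 59 in TPM (2.74%). Without 1 calf they numbered 9 to 51, against 1.41% to 2.52% of all genes. In round muscle they numbered 0 to 7 without 1 calf (7 of 78, or 8.97%, without control replicate 1, against 542 of all 21677 genes). These settings were added after the data were seen.

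The replicate block (number in the labels) changed no call and gave a median of 0.24 for diet in sirloin and 0.07 in round, with 1 instead of 4 sirloin members at an unadjusted p below 0.05. Those numbers mark different calves across diets, whose deviations correlated at -0.154 to 0.188. The calf block gave medians of -0.15 between the muscles and -0.21 for the interaction, with 0 members called. Over all genes it called 109 between the muscles and 1 for the interaction. For the interaction it gave 1 member at an unadjusted p below 0.05 (3.78% of all genes).

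The genes recomputed singly were the 5 members of smallest p per comparison, a choice made on the same data, with RPL3 and RPL3L. Among these, directions turned for RPL3 and RPL3L only, neither of them called. Other members also turned for diet in round, where 49 members were above 0 in the main fit. Without 1 calf this number ran from 25 (without control replicate 2) to 70 (without treated replicate 2). The diet difference of RPL3 in round (log2 scale) was -0.035 by limma-voom, -0.016 with the replicate block, and -0.35 to 0.38 without 1 calf (-0.35 without treated replicate 1, -0.01 without control replicate 1). RPL3 between the muscles was -0.040 to 0.34 without 1 calf, the lowest without treated replicate 1. RPL3L for diet in sirloin was 0.083 on TPM, 0.10 without TMM factors and -0.19 to 0.043 without 1 calf, above 0 without control replicate 3. The RPL3L to RPL3 ratio for diet in round was -0.21 to 0.64 without 1 calf, -0.21 without treated replicate 2 and -0.037 without control replicate 2. The sirloin relation of RPL3L with RPL3 was -0.41 on TPM and -0.77 with diet means removed, neither below 0.05, and -0.85 to -0.70 without 1 calf, above 0.05 without control replicate 2 or 3 or treated replicate 3 or 4. The causes were not tested.

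With 4 calves in each group, the median SE of a member was 0.28 for diet in round and 0.18 in sirloin, which limits the differences that a single member could show at this number of calves.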
